A study of Homo sapiens with 40 samples.

Results

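NSD2-dTAG clone 11 after 14 days of dTAGV-1 was compared with the same clone before treatment, using H3K27me3 peak lists from 4 CUT&Tag libraries, 2 per day, of the 30 H3K27me3 libraries in the series. The libraries were chosen by the titles that name this clone, this mark and days 0 and 14. KMS-11 is a human line from multiple myeloma with the t(4;14) translocation, and it was grown in RPMI-1640 with serum. In both groups the endogenous NSD2 protein carries the dTAG degron, so the untreated control is a tagged clone and not wild-type cells. The day 0 libraries were untreated and the day 14 libraries received dTAGV-1 at 100 nM. Clone 11 is 1 clone of this engineering, and the series text calls its replicates biological. Reference groups were NSD2-dTAG clone 8, made from the same parental line, and that untagged parental line (genotype WT), each at day 0 and day 14 with 2 libraries per group. The labels give no dose for the treated parental line.

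H3K27me3 is the trimethylation of histone H3 at lysine 27 by Polycomb repressive complex 2, and it marks silenced genes such as developmental regulators in lineages that do not use them. NSD2 is a methyltransferase that places H3K36me2 across genes and the space between them, and H3K36me2 on a histone tail hinders methylation of lysine 27 by Polycomb repressive complex 2. The translocation places NSD2 under immunoglobulin enhancers and so raises its level, and dTAGV-1 brings the VHL ubiquitin ligase to the tagged protein for degradation. In CUT&Tag an antibody against the mark tethers the transposase Tn5, which cuts the DNA nearby. The question was where the lists of called H3K27me3 regions differ once NSD2 has been degraded for 14 days.

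The promoters of 6 genes show the range of sequence behind the results. Each window runs 250 bases before to 50 bases after the RefSeq start on GRCh38.p14, written 5′ to 3′ on the gene's strand with each CG dinucleotide in capitals. The windows of LCE3E, PPBP and OR2S2 lay outside peaks at day 0 and were at least 50% covered in both day 14 libraries. CLRN2 gained peaks over its body while its start stayed outside peaks in all 4 libraries. The start windows of SLBP and CNN2 were wholly covered in all 4 libraries.
LCE3E (chr1:152566731-152567030, minus strand): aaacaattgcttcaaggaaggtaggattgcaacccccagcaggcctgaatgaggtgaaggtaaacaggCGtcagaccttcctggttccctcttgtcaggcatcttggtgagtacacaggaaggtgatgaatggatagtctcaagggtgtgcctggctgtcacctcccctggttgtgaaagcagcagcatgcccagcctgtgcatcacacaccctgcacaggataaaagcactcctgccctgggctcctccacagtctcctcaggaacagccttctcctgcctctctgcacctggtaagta
PPBP (chr4:73988141-73988440, minus strand): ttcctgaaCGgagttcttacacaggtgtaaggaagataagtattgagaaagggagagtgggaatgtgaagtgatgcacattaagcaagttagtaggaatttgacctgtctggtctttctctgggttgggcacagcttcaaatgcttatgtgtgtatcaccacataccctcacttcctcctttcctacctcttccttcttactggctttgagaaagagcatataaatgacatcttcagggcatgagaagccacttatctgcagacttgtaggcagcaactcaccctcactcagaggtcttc
OR2S2 (chr9:35958105-35958404, minus strand): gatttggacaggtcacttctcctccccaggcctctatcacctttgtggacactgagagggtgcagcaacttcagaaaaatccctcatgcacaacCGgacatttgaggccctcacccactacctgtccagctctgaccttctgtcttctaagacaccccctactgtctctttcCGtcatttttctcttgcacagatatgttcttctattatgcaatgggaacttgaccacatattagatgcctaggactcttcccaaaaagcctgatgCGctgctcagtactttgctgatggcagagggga
CLRN2 (chr4:17514915-17515214, plus strand): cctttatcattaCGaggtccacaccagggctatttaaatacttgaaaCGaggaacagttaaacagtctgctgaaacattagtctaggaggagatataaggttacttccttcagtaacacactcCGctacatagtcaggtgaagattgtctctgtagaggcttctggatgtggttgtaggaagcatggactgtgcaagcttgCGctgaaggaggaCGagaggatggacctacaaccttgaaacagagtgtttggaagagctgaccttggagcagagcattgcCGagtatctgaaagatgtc
SLBP (chr4:1712270-1712569, minus strand): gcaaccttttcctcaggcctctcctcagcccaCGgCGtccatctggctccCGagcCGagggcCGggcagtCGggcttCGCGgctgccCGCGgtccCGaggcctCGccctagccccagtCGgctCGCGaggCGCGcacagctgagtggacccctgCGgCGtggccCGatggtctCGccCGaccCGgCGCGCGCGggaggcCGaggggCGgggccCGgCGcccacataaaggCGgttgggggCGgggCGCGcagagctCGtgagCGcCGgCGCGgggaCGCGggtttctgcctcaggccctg
CNN2 (chr19:1026358-1026657, plus strand): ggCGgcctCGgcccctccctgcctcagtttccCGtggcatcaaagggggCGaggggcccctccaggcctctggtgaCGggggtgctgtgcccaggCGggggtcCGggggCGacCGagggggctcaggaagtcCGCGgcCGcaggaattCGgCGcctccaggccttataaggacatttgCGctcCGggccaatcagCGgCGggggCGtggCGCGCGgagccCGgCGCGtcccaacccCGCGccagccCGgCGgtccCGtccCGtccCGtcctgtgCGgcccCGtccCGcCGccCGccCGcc
LCE3E and PPBP had 1 CG each, OR2S2 had 3, CLRN2 had 6, SLBP had 42 and CNN2 had 38. CG reads the same on both strands and was present in 98.4% of the 15411 protein-coding promoter windows that could be matched. The median number of CG per window was 29 in the 6515 promoters covered by at least 50% in all 4 libraries, 18 in the 481 newly covered at day 14 and 7 in the 4361 covered in none.

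The 4 lists held 52586 and 43567 peaks at day 0 and 168007 and 118481 at day 14. Read depth was not listed, so it was estimated as the caller's background pileup, in fragments per position. This estimate was 1.24 and 1.29 at day 0 and 2.20 and 2.14 at day 14, a ratio of 1.71. Deeper libraries can give longer lists, and the part of depth in the length of these lists was not tested. Where 2 libraries form each group, an exact permutation test cannot give a p under 0.333. For single genes the test was limma, in which the spread comes from the replicate pairs of all 15 groups. Markers were used to check the cell type. Of 10 plasma cell genes, 7 had less than 5% of their body covered in all 4 libraries, among them PRDM1, SDC1, XBP1 and TNFRSF17. The other 3 were SLAMF7, which reached 46.3%, MZB1, which reached 10.5%, and CD38, which reached 6.71%. Of 6 T cell genes and of 6 monocyte genes, 1 each stayed under 5% in all 4 libraries (BCL11B and ITGAM). Low coverage was common among all genes, so it does not by itself identify plasma cells. Of 19447 genes, 5468 had a mean of 1% or less over the 30 libraries. The median of the 13975 other genes that were tested was 2.70% and 2.62% at day 0 and 7.16% and 6.15% at day 14. NSD2 itself (chromosome 4, 1871393 to 1982192) was outside peaks in 3 of the libraries and 0.474% covered in day 14 replicate 2. CCND2 was outside peaks in all 4. Peak lists do not show whether NSD2 protein was lost.

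More of the genome was called as H3K27me3 at day 14. Called length, the summed length of all peaks on chromosomes 1 to 22 and X, was 50.1 and 46.9 Mb in the day 0 libraries, against 132 and 108 Mb after 14 days. The groups did not overlap, and the ratio of the means was 2.48 (48.5 ± 2.29 Mb against 120 ± 17.5 Mb, SD, n = 2 each; exact two-sided permutation p = 0.333, the smallest this design allows). The added length lay in weak peaks. Peaks with a -log10 q of at least 5 summed to 19.7 and 12.9 Mb at day 0 and to 17.7 and 14.1 Mb at day 14, ranges that overlap, and the ratio turned to 0.975. The remaining peaks rose from 30.5 and 34.0 Mb to 115 and 93.7 Mb. The share of peaks with a -log10 q of at least 5 went from 34.2% and 24.7% to 11.7% and 11.8%. The pileup moved with the length, and length per unit of pileup was 40.5 and 36.2 Mb before treatment, against 60.3 and 50.3 Mb at day 14. Untreated libraries at a similar pileup were shorter than either day 14 library. Parental day 0 replicate 1, with a pileup of 2.22, had 76.2 Mb, and clone 8 day 0 replicate 1, with 2.31, had 69.9 Mb. Treated clone 8 libraries were not all shorter: day 7 replicate 2, with 2.35, had 110.1 Mb.

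**Figure D1:**
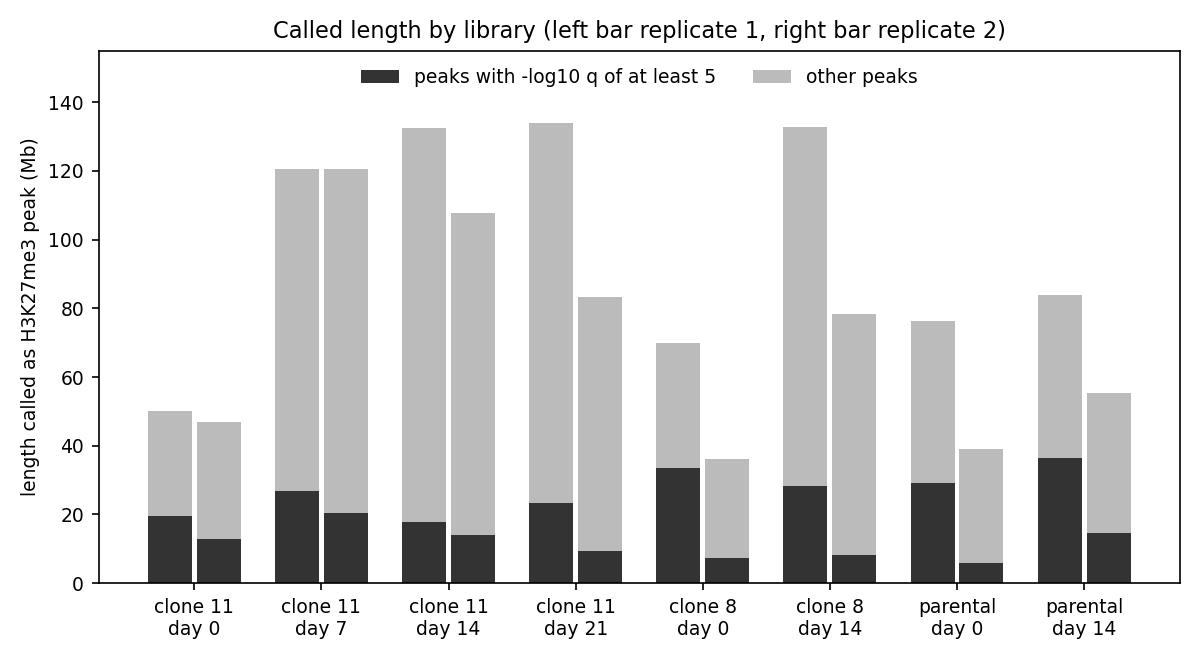
Length called as H3K27me3 peak (Mb, y axis) in each library, with replicate 1 on the left and replicate 2 on the right of each pair, split into peaks with a -log10 q of at least 5 (dark) and other peaks (light); parental stands for the dTAG parental line. The dark part of clone 11 is 12.9 to 19.7 Mb at days 0 and 14 alike, and the light part grows from 30.5 and 34.0 Mb to 115 and 93.7 Mb.

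A larger part of the called length lay outside genes and away from the peaks of untreated parental cells at day 14, although most of it was still within 25 kb of such a peak. The share of called length inside protein-coding genes was 53.0% and 53.2% at day 0 and 43.3% and 44.5% at day 14. The difference of means was -9.16 percentage points (exact two-sided permutation p = 0.333). It was -4.96 when every list was shortened to the same length and -2.46 among peaks with a -log10 q of at least 5. Length outside genes went from 23.6 and 22.0 Mb to 75.1 and 59.8 Mb. At day 0, 99.4% and 99.2% of the called length lay within 25 kb of a peak of the untreated dTAG parental line, a zone that takes up 36.0% of these chromosomes. At day 14 the share was 78.7% and 81.9%, a difference of -19.0 points (exact two-sided permutation p = 0.333), and -10.6 with lists of equal length and -8.38 among peaks with a -log10 q of at least 5. The length beyond 25 kb went from 0.302 and 0.368 Mb to 28.2 and 19.6 Mb.

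Many of the peaks in all 4 libraries sat on start sites, in a band a few kb wide. The base at the annotated start lay inside a peak for 52.7% and 51.0% of protein-coding genes at day 0 and for 61.0% and 59.3% at day 14. At 4 kb downstream the shares were 2.81% and 2.45% at day 0 and 5.10% and 4.27% at day 14, and at 100 kb downstream they were 4.13% and 3.76% against 7.68% and 6.70%. The sharp centre was therefore present before treatment, and the flanks were higher at day 14 out to 100 kb on either side. Bases within 2 kb of any annotated start make up 3.79% of the chromosomes and held 25.7% and 26.9% of the called length at day 0 and 12.8% and 15.0% at day 14. They held 38.9% and 44.5%, then 40.6% and 49.6%, of the length in peaks with a -log10 q of at least 5. Away from starts, called length rose from 37.2 and 34.3 Mb to 115 and 91.6 Mb.

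Start-site peaks were called at genes of many kinds. Of all 15411 matched promoters, 42.3% were at least 50% covered in all 4 libraries and 28.3% were covered in none. Ribosomal protein genes, which every cell uses, had 34 of 63 matched promoters covered in all 4 libraries and 2 of 63 covered in none. HOX cluster genes, the textbook Polycomb targets, had 3 of 20 covered in all 4 and 10 of 20 in none. Among plasma cell identity genes 13 of 22 were covered in all 4. Whether these start-site peaks carry the mark was not tested, since the IgG, H3K27ac and H3K4me3 libraries were not analysed here. Leaving out all bases within 2 kb of a start, limma called 2000 genes gained and 17 lost of 9238 tested. Of the 1941 genes called gained over whole bodies, as given below, 1763 could be tested in this way and 1676 were again called gained.

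**Figure D2:**
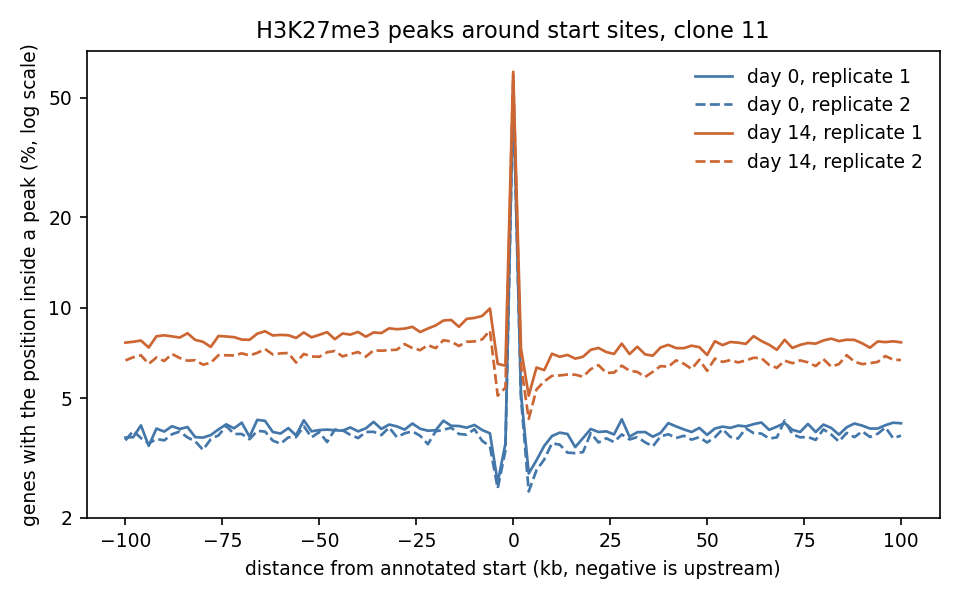
Share of protein-coding genes (log scale) in which the position at a given distance from the annotated start (kb) lies inside an H3K27me3 peak, for the 4 libraries of clone 11. All 4 lines reach 51.0% to 61.0% at the start itself, and the day 14 lines run above the day 0 lines on both flanks.

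Across genes, coverage rose far more often than it fell. Each gene's score is the share of its body, in percent, that lies inside peaks, and the 13975 of 19447 genes with a mean of 1% to 99% over the 30 libraries were tested. Limma called 1941 genes gained (13.9% of those tested) and 27 lost (0.193%) at an adjusted p under 0.05. In all 1941 and all 27, both day 14 libraries lay on the same side of both day 0 libraries. Such separation was common: of all 13975 tested genes, 6721 had both day 14 libraries above both day 0 libraries and 1089 had both below. The median difference over all tested genes was 1.87 percentage points, and 73.6% of the differences were positive. The median gain of called genes was 7.69 points, and 524 of them were outside peaks in both day 0 libraries. Scaled by each library's called length, which sets the median of all tested genes to -1.56, 1573 genes were called gained and 2908 lost. With the pileup as a covariate, which brings the median to 0.374, the counts were 1258 and 322. Of the 1941 gained genes, 1380 were also gained after scaling and 1256 with the covariate. Peaks with a -log10 q of at least 5 gave 0 gained genes and 1 lost. Leaving out either day 0 library brought the gained count to 711 (replicate 1) or 608 (replicate 2), and leaving out day 14 replicate 1 brought it to 688.

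Among genes of at least 10 kb, the 12 largest gains included proteases, immune receptors and tissue-specific genes. CTSK encodes cathepsin K, a collagen-degrading protease of osteoclasts (chromosome 1, 150796208 to 150808260). It was outside peaks in both day 0 libraries and 41.2% and 24.6% covered at day 14 (32.9 ± 7.18 points, SE; limma adjusted p = 0.00578). Its neighbour CTSS encodes cathepsin S, a protease of antigen presentation (chromosome 1, 150730188 to 150765778). CTSS was 0% and 2.93% covered at day 0 and 29.5% and 29.8% at day 14 (28.2 ± 3.85 points; limma adjusted p = 0.000436). SLAMF1, a receptor of lymphocytes (chromosome 1, 160608106 to 160647044), went from 6.13% and 2.97% to 31.1% and 32.2% (27.1 ± 3.97 points; limma adjusted p = 0.000554). SLAMF8, of the same receptor family (chromosome 1, 159826873 to 159837492), went from 5.28% and 5.80% to 39.7% and 36.7% (32.7 ± 8.84 points; limma adjusted p = 0.0194). In the parental line SLAMF8 went from 19.2% and 0% at day 0 to 30.5% and 23.5% at day 14. In these 4 genes the replicates of a day were close and the days far apart, except CTSK at day 14.

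Genes of other tissues made up the rest. CIDEC, which coats the lipid droplets of adipocytes (chromosome 3, 9866710 to 9880253), went from 0% in both libraries to 29.3% and 28.9% (29.1 ± 5.70 points; limma adjusted p = 0.00309). CLRN2, a membrane protein of hair cells (chromosome 4, 17515165 to 17527104), went from 0% in both to 24.8% and 28.4% (26.6 ± 4.30 points; limma adjusted p = 0.000998). SERPINC1 encodes antithrombin, made by the liver (chromosome 1, 173903800 to 173917327). It went from 5.65% and 0% to 42.4% and 19.8%, a wide spread at day 14 (28.3 ± 7.67 points; limma adjusted p = 0.0199). AVPR1B, the vasopressin receptor of the pituitary (chromosome 1, 206106936 to 206117388), had the largest difference of these 12, from 18.9% and 3.28% to 55.2% and 37.1% (35.1 ± 10.2 points; limma adjusted p = 0.0287). In the parental line AVPR1B went from 30.2% and 13.9% at day 0 to 37.9% and 37.2% at day 14. HPCAL4, a neuronal calcium sensor (chromosome 1, 39678648 to 39691433), was already 25.7% and 8.82% covered at day 0 and 41.5% and 47.1% at day 14 (27.0 ± 6.77 points; limma adjusted p = 0.0125). In the parental line HPCAL4 was 40.5% and 37.0% covered at day 0 and 41.0% and 24.6% at day 14. Of the remaining 3, CPN2, a subunit of plasma carboxypeptidase N, differed by 34.3 points. ITGA10, a collagen-binding integrin chain, differed by 29.9 and NECTIN4, an epithelial adhesion protein, by 28.9, with limma adjusted p between 0.0226 and 0.0481 for these 3. Of the 12 largest gains, only CTSS and CLRN2 were also called when tested against the change of the parental line, as given below.

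**Figure D3:**
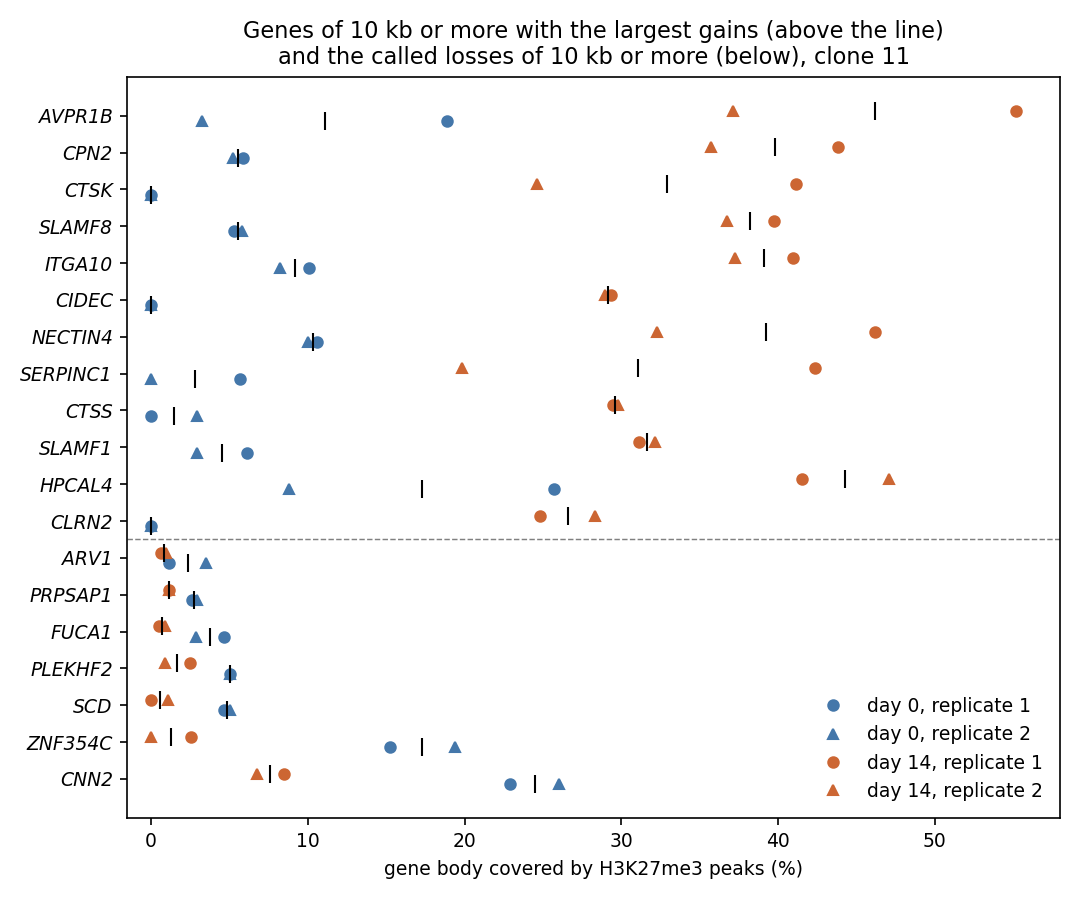
Percent of the gene body covered by H3K27me3 peaks (x axis) in each clone 11 library for the 12 genes of at least 10 kb with the largest gains and the 7 called losses of at least 10 kb. Circles are replicate 1, triangles replicate 2 and ticks the mean of a day. Only genes with the 2 day 14 values on 1 side of the 2 day 0 values were chosen, so every gene shows this.

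Losses were few and mostly in short genes. Of the 27 lost genes 7 were 10 kb or longer, and the median loss of the 27 was -20.1 points. Leaving out bases within 2 kb of a start, 15 of the 27 could be tested and 10 were again called lost. CNN2, an actin-binding calponin (chromosome 19, 1026608 to 1039065), was 22.9% and 26.1% covered at day 0 and 8.48% and 6.75% at day 14 (-16.9 ± 3.06 points, SE; limma adjusted p = 0.0020). Its start window, printed above, was covered throughout, but the window reaches only 50 bases into the gene and does not show where the loss lay. ZNF354C, a zinc finger gene (chromosome 5, 179060373 to 179083977), went from 15.2% and 19.4% to 2.58% and 0% (-16.0 ± 5.01 points; limma adjusted p = 0.041). SCD, the desaturase that makes monounsaturated fatty acids (chromosome 10, 100347233 to 100364826), went from 4.67% and 5.02% to 0% and 1.1% (-4.30 ± 1.31 points; limma adjusted p = 0.0362). The other 4 were PLEKHF2, FUCA1, PRPSAP1 and ARV1, with differences of -3.37 to -1.54 points. The error was larger in both directions where coverage was high. The median standard error was 1.20 points in tested genes with a mean coverage of 1% to 5% and 13.4 points in those above 50%.

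The long arm of chromosome 1 stood out among the largest gains. Of the 12 named gains, 8 lie on chromosome 1 beyond 130 Mb, as do 29 of the 100 largest gains of genes of at least 10 kb. That region was picked after these genes were seen. It holds 773 of the tested genes, of which 147 were gained (19.0%), with a median difference of 4.32 points. On the rest of chromosome 1, 71 of 788 were gained (9.01%), with a median of 1.54, and on all other chromosomes 1723 of 12414 (13.9%), with a median of 1.80. In 25-kb bins of the region, mean coverage was 3.45% and 3.16% at day 0 and 12.4% and 10.2% at day 14, and 41.5% of the tested bins were gained. On the rest of chromosome 1 it was 6.76% and 6.51% at day 0 and 11.2% and 9.82% at day 14, and 18.5% of the tested bins were gained. On all other chromosomes it was 3.95% and 3.68% at day 0 and 10.1% and 8.27% at day 14, and 30.6% were gained. By bins the region did not stand out from every chromosome, since chromosome 4 as a whole had 41.6% of its tested bins gained. The median gene difference of the region was 3.42 points in clone 8 and 0.389 in the parental line over the same days. Copy number, which sets how many reads a region gives, was not analysed here, so its part in the regional difference was not tested.

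Immune receptor genes of this arm formed the gene list with the largest median among 26 lists. Of 17 Fc receptor-like and SLAM family genes, all tested, 9 were gained and none lost, with a median difference of 19.3 points. They were FCRL1, FCRL2, FCRL3, FCRL5, SLAMF1, SLAMF6, SLAMF8, CD84 and CD244, with gains of 16.0 to 32.7 points. FCRL5, an Fc receptor-like protein of B and plasma cells (chromosome 1, 157513377 to 157552515), went from 8.03% and 8.87% to 31.1% and 24.4% (19.3 ± 5.14 points; limma adjusted p = 0.0179). After scaling by called length 4 of the 17 were called gained, and with the pileup covariate 9. SLAMF7, a plasma cell receptor, went from 26.4% and 18.4% to 46.3% and 41.0%, which did not pass the test (limma adjusted p = 0.112).

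In other blood cell lists the gained share of tested genes lay between 4.35% and 25.8%, against 13.9% of all tested genes. Of 31 tested B cell identity genes 8 were gained (25.8%), with a median of 5.73 points. CD52, a surface glycoprotein of lymphocytes, went from 0% in both libraries to 39.3% and 30.4% (34.8 ± 9.67 points; limma adjusted p = 0.0224). The parental line given the compound also went from 0% in both to 26.7% and 14.4%, while in clone 8 CD52 was outside peaks at days 0 and 14. MS4A1, the gene of CD20, went from 0% in both to 17.3% and 6.63% and missed the threshold (limma adjusted p = 0.0598). Among 35 tested T and NK cell genes 5 were gained (14.3%, near the overall share), led by CD8A, the coreceptor of cytotoxic T cells, which went from 7.90% and 2.81% to 25.7% and 18.5% (16.8 ± 3.35 points; limma adjusted p = 0.0035). Of 34 tested monocyte, macrophage and granulocyte genes 3 were gained (8.82%): FCGR3A, TLR4 and LYZ. FCGR3A, which has a near-identical neighbour, went from 0% in both to 28.0% and 26.4%. Of 23 tested plasma cell identity genes FCRL5 was the 1 gained (4.35%). Of 21 tested erythroid and megakaryocyte genes 3 were gained (14.3%), led by PPBP, a platelet chemokine, which went from 0% in both to 40.8% and 14.1% (limma adjusted p = 0.0438). Chemokine and chemokine receptor genes had 5 of 61 gained (8.20%), led by CCR8, and adhesion genes of myeloma cells 3 of 22 (13.6%), led by ITGAL. None of these 7 lists had a lost gene.

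Lists of tissue genes lay on both sides of the overall share of 13.9%. The epidermal differentiation complex, a cluster of skin barrier genes on chromosome 1, had 8 of 47 genes gained (17.0%), with a median of 16.4 points. LCE3E, a late cornified envelope gene with close paralogs that could share reads, went from 0% to 100% in both libraries (limma adjusted p = 0.00361). In untreated clone 8 it was 81.1% and 0% covered. Of 43 matched promoters of this cluster 11 were newly covered, against 481 of all 15411 (3.12%). The olfactory receptors had 15 of 89 tested genes gained (16.9%), led by OR2S2, from 0% in both to 98.7% and 100% (limma adjusted p = 0.0224). The list holds 241 receptors, and the rest did not enter the test. Of 47 tested collagen and cartilage matrix genes 10 were gained (21.3%), with MATN2, a matrix adaptor protein, rising from 3.01% and 2.91% to 19.4% and 13.5% (13.5 ± 3.20 points; limma adjusted p = 0.00922). Of 22 tested glutamate, GABA and glycine receptor genes 7 were gained (31.8%). The shares of ion channel genes (14 of 104 tested, 13.5%), cadherins and protocadherins (5 of 34, 14.7%) and Wnt ligands and antagonists (5 of 30, 16.7%) were near the overall share. Keratin genes had 2 of 85 tested genes gained (2.35%).

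Among developmental regulators, textbook targets of Polycomb, the lists differed, with 13.9% of all tested genes gained. None of 39 HOX cluster genes was called, with a median difference of 4.85 points over the 35 tested. That median turned to -21.7 after scaling by called length and -2.54 with the pileup covariate. Over all 39 the median coverage was 14.6% and 18.6% at day 0 and 26.0% and 13.7% at day 14, ranges that overlap. HOXB5 differed most, from 57.2% and 0% at day 0 to 0% in both day 14 libraries, a difference that rests on day 0 replicate 1 (limma adjusted p = 0.408). Of 78 tested other homeobox genes GBX1 and VSX1 were gained (2.56%) and CDX2 lost. SOX, FOX, GATA and T-box factors had 2 of 39 gained (5.13%), led by TBX20, a heart factor. GBX1, a forebrain factor, went from 13.9% and 11.3% to 32.2% and 31.6% (19.3 ± 5.34 points; limma adjusted p = 0.0219). CDX2, an intestinal factor (chromosome 13, 27960918 to 27969315), was 24.9% and 24.8% covered at day 0 and 14.4% and 0% at day 14 (-17.6 ± 5.14 points; limma adjusted p = 0.0286). MYF5, a muscle factor, went from 0% in both to 57.1% and 42.8% (49.9 ± 10.9 points; limma adjusted p = 0.00567), 1 of 5 gained among 28 tested neural and muscle bHLH factors (17.9%). After scaling by called length 10 of 35 HOX genes were called lost and 1 gained, and 30 of 78 other homeobox genes lost and 2 gained. Of all 13975 tested genes, that scaling called 2908 lost and 1573 gained.

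The list of myeloma translocation and cyclin genes had a gained share near that of all tested genes, at 2 of 13 (15.4%) against 13.9%. CCND3, a cyclin that some myeloma translocations activate, went from 2.73% and 4.99% to 15.0% and 9.22% (8.25 ± 1.92 points; limma adjusted p = 0.00831), and MAF was also gained. FGFR3, beside NSD2 (chromosome 4, 1793293 to 1808867), was 19.5% and 10.6% covered at day 0 and 27.8% and 25.5% at day 14. Its difference was within the error (11.6 ± 15.5 points; limma adjusted p = 0.758) and turned to -7.74 after scaling by called length and -10.7 with the pileup covariate. None of 23 tested Polycomb subunit genes and none of 13 tested cell cycle inhibitor genes was called. Of 72 tested ribosomal protein genes 2 were gained (2.78%), and of 161 tested zinc finger genes on chromosome 19 ZNF234 was the 1 gained (0.621%), with a list median of -0.206 points.

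The share of genes gained rose with gene length. Of tested genes under 10 kb 3.65% were gained, against 6.89% from 10 to 30 kb, 18.5% from 30 to 100 kb, 43.1% from 100 to 300 kb and 63.4% above 300 kb. The filter passed 78.5% of genes under 10 kb but 43.2% of those above 300 kb. Counted over all genes, tested or not, the gained shares were 2.86%, 5.74%, 12.4%, 22.9% and 27.4%, a smaller rise. The median differences in these classes were 1.27, 1.38, 2.13, 3.07 and 3.12 points. The standard error fell over the same classes, from a median of 6.11 to 0.833 points, so a smaller difference could pass in a long gene. Of 314 genes over 500 kb, 115 were tested and 74 gained. FSTL4, a follistatin-like gene of 646 kb (chromosome 5, 133196455 to 133842067), led them, from 1.36% and 1.18% to 14.2% and 11.4% (11.5 ± 2.90 points; limma adjusted p = 0.0127).

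In 25-kb bins the rise was widespread and thin. Of 114927 autosomal bins, 48605 were tested, and limma called 14885 gained (30.6%) and 35 lost (0.072%). Of the gained bins, 67.4% were outside peaks in both day 0 libraries, and the median gain was 9.73 points. The median difference over all tested bins was 4.86 points. Bins without any protein-coding gene were gained in 39.0% of those tested, bins partly in genes in 21.7% and bins wholly in genes in 30.3%. Counted over all bins, tested or not, these shares were 12.7%, 16.9% and 10.9%, so the order of the classes depended on the filter. Without bases within 2 kb of a start, 14781 bins were gained of 45331 tested. With the pileup as a covariate 8217 bins were gained and 1041 lost, and without day 14 replicate 1 the gained count was 4313.

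Coverage at day 14 was closer to that at day 0 where the parental line already had much of the mark. Tested bins uncovered in both dTAG parental day 0 libraries had a mean coverage of 0.0913% and 0.103% in clone 11 at day 0 and 7.40% and 5.43% at day 14. Bins with 5% to 10% in the parental line went from 5.64% and 5.24% to 11.7% and 10.1%. Bins with over 40% in the parental line were 41.4% and 39.3% covered at day 0 and 42.3% and 40.3% at day 14, where the ranges of the days overlap. Of tested bins the gained share fell along these classes from 47.9% to 0%. The median differences fell less evenly, at 5.67, 4.83, 4.00, 4.63, 3.58, 1.06 and 1.09 points from the lowest class to the highest. The median standard error rose over the same classes from 2.19 to 8.47 points, so a larger difference was needed to pass where coverage was high. A bin uncovered in the parental line entered the test only if other libraries covered it, and of all 83396 such bins 10.4% were gained. Among all bins with some parental coverage up to 2% the share was 30.3%, and it fell through 23.2%, 17.5%, 6.88% and 1.17% to 0% above 40%.

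**Figure D4:**
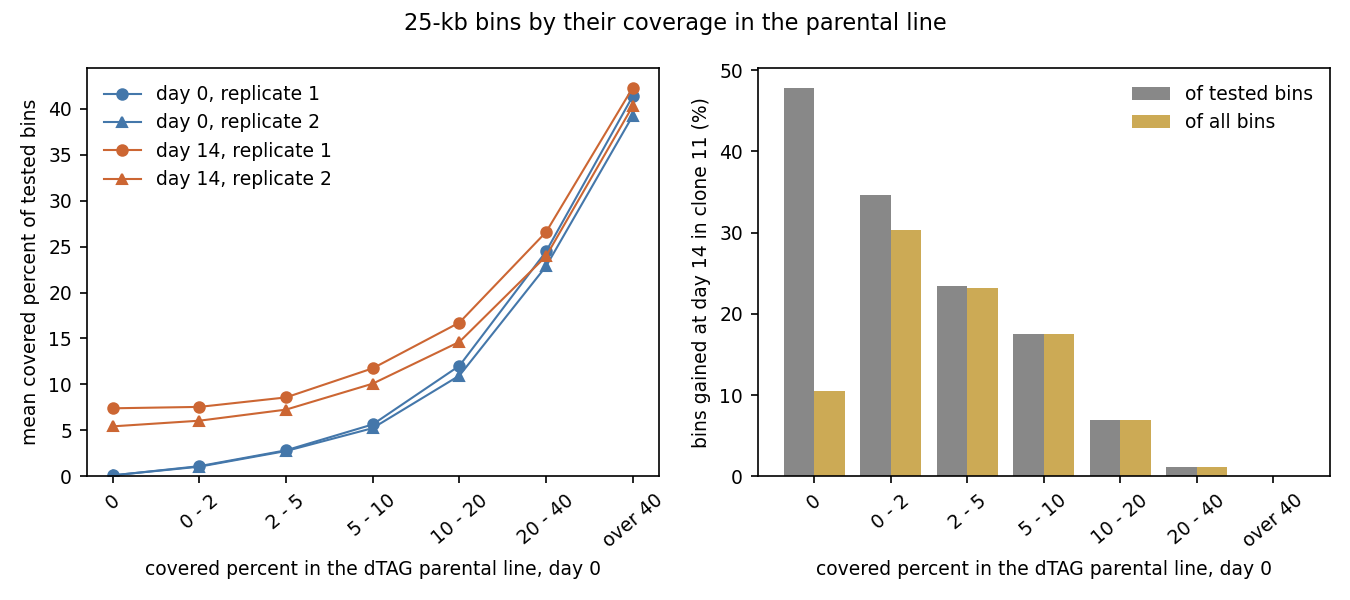
Autosomal 25-kb bins grouped by their mean covered percent in the untreated dTAG parental line (x axis). Left, mean covered percent of the tested bins in each clone 11 library; the day 14 lines lie above the day 0 lines in the low classes and meet them above 40%. Right, percent of bins gained, of tested bins (grey) and of all bins (yellow).

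Autosomes differed widely in their share of gained bins. It was lowest on chromosome 19, at 2.93% of tested bins, followed by chromosome 22 at 10.6%, chromosome 17 at 14.8% and chromosome 16 at 16.5%. It was highest on chromosome 4, at 41.6%, then chromosome 5 at 39.9% and chromosome 3 at 39.6%. The filter passed 34.3% of bins on chromosome 4 and 72.7% on chromosome 19, and the order depended on it. Counted over all bins, tested or not, the share was 14.3% on chromosome 4 and highest on chromosome 7, at 18.8%. By that count chromosome 19 was lowest at 2.13%, followed at 5.16% by chromosome 13, which has 2.94 genes per Mb. Chromosome 19 is the most gene-dense autosome, with 24.5 protein-coding genes per Mb against 4.03 on chromosome 4. Its bins had a mean coverage of 10.3% and 10.0% at day 0 and 11.3% and 10.3% at day 14, while those of chromosome 4 went from 2.21% and 2.12% to 9.09% and 7.00%. Chromosome 19 held 7 of the 35 lost bins.

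**Figure D5:**
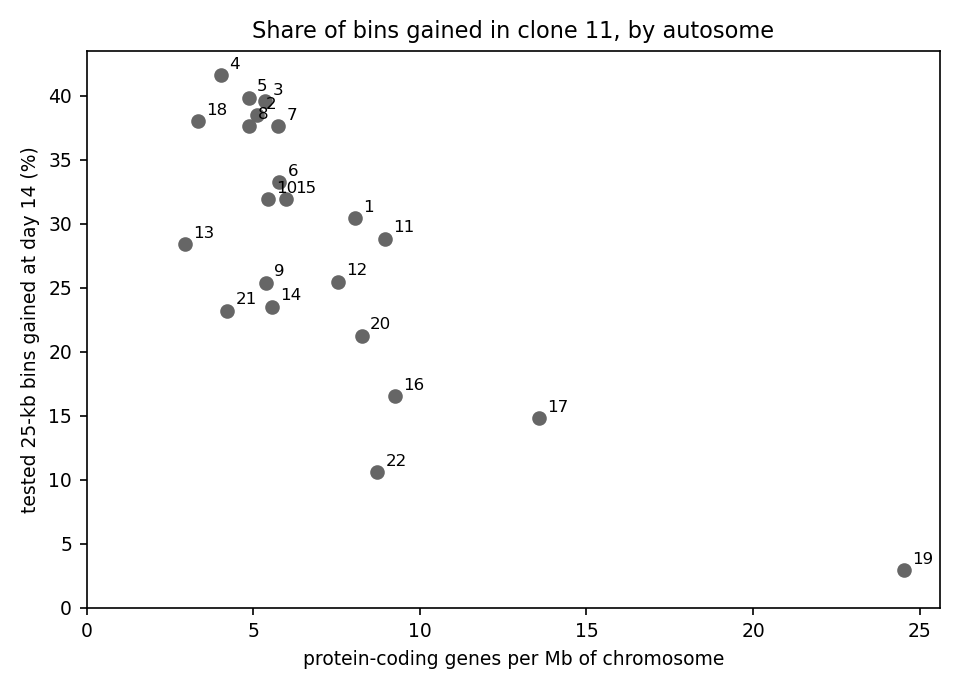
Percent of tested 25-kb bins gained at day 14 (y axis) against protein-coding genes per Mb (x axis), 1 point per autosome with its number. Chromosome 19 is alone at 24.5 genes per Mb and 2.93%, and chromosomes with fewer than 8 genes per Mb range from 23.2% to 41.6% of tested bins. The order differs when all bins are counted.

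Gained bins formed 8814 runs, 63.9% of them 1 bin long, and 23.6% of the gained bins lay in runs of 4 or more. The longest run, chr2:177625001-178100000, spans 475 kb at PDE11A, a cyclic nucleotide phosphodiesterase. Its mean coverage was 0.791% and 1.17% at day 0 and 14.7% and 11.4% at day 14, so even there most bases stayed outside peaks. The next runs were chr4:53475001-53900000 at LNX1, an E3 ubiquitin ligase, chr5:95975001-96375000 at CAST, the calpain inhibitor, chr3:156125001-156475000 at KCNAB1, a potassium channel subunit, and chr12:58025001-58375000 at LOC105369787. They spanned 350 to 425 kb and had 0% to 0.326% at day 0 and 8.79% to 15.2% at day 14. In the parental line these 5 runs changed by -0.00275 to 0.285 points over 14 days. All 35 lost bins stood alone. The largest loss, chr19:30450001-30475000 at ZNF536, went from 19.4% and 17.1% to 0% in both, and chr1:5550001-5575000, in no protein-coding gene, from 28.3% and 33.1% to 19.0% and 9.20%.

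Day 7 and day 21 of clone 11 share the day 0 libraries with day 14, so their changes are not independent and are given side by side only. Limma called 1570 genes gained at day 7 (11.2%) and 1185 at day 21 (8.48%), with 5 (0.0358%) and 13 (0.093%) lost. Over the 1941 genes gained at day 14, median coverage was 0.573% and 0.443% before treatment. It was 6.94% and 7.27% after 7 days, 9.40% and 7.76% after 14 and 8.48% and 4.93% after 21. All treated libraries were above both untreated ones, and the day 14 and day 21 ranges overlap. These genes were chosen by day 14, so the levels of days 0 and 14 follow from the choice.

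Clone 8, with its own day 0 libraries, moved the same way. Limma called 773 genes gained (5.53%) and 24 lost (0.172%) in it at day 14. Of the 1941 genes gained in clone 11, 633 were called gained in clone 8, which is 32.6% of the clone 11 list and 81.9% of the clone 8 list. The clone 8 difference was positive in 1895 of the 1941 (97.6%), against 68.8% of all tested genes, with a median of 5.33 points. When the changes of both clones were tested against each other, limma called 0 genes higher and 0 lower in clone 11, and 308 and 99 passed at an unadjusted p under 0.05. This does not show that the clones acted alike, and the median difference between their changes was 0.604 points. Clone 8 day 14 replicate 2 was a shorter list than replicate 1 (78.3 against 133 Mb).

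The untagged parental line given the compound served as the control for dTAGV-1 itself. Limma called 0 genes gained and 0 lost in it at day 14, with 293 and 56 at an unadjusted p under 0.05. Its median difference over the 1941 genes gained in clone 11 was 0.136 points. When the changes of both lines were tested against each other, 120 genes rose more in clone 11 (0.859%) and 1 less (0.00716%), and 593 bins rose more (1.22%) and 2 less (0.00411%). The gene counts rest on every library and on the scaling: leaving out 1 of the 8 libraries at a time gave 3 genes (without parental day 0 replicate 1) to 410 (without clone 11 day 14 replicate 2) rising more, and scaling by called length gave 618 rising more and 785 less. Among those of at least 10 kb the largest difference was in CLRN2, which in the parental line was 4.55% and 0% covered at day 0 and 0% and 0.159% at day 14 (difference of changes 28.8 ± 6.08 points, SE; limma adjusted p = 0.0395). CTSS was 6.94% and 0% covered there at day 0 and 7.38% and 2.15% at day 14 (26.9 ± 5.44 points; limma adjusted p = 0.0375). FCRL2, a receptor of B cells, was 8.49% and 2.27%, then 12.3% and 2.71% (21.0 ± 4.56 points; limma adjusted p = 0.0407). ARGFX, an embryonic homeobox gene, was outside peaks in all 4 of those parental libraries and went from 0% in both to 22.6% and 20.2% in clone 11 (21.4 ± 4.64 points; limma adjusted p = 0.0407). LOC124904583 had a difference of changes of 27.4 ± 6.16 points (limma adjusted p = 0.0434).

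SLBP, which encodes the histone mRNA stem-loop binding protein (chromosome 4, 1692731 to 1712319), was the 1 gene that rose less in clone 11 than in the parental line. It was 4.87% covered in both day 0 libraries of clone 11 and 1.73% and 2.24% at day 14, a change that alone missed the threshold (limma adjusted p = 0.0688). In the parental line it was 3.02% and 0.526% at day 0 and 5.66% and 4.85% at day 14. The difference of changes was -6.37 ± 1.44 points (limma adjusted p = 0.0434), and its start window was covered throughout.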

How the data were processed

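The sources were 30 H3K27me3 CUT&Tag peak lists, 15 groups of 2, each library from 50000 nuclei and 13 PCR cycles, per the labels' protocols. Per the submitters' processing notes, the genome build was hg38 and the tools were MACS3 3.0.2, Bowtie2, fastp 0.24.0, ChIPseeker 1.42.1, Picard, DESeq2, SAMtools and deepTools 3.5.1, with no roles named. The sources used here do not give the calling options or the control. The deposited lists hold 1 broadPeak list per library, with no pooled list. Their columns are a score, the authors' fold (a ratio over the caller's background), and -log10 p and -log10 q, all as deposited. Peaks were filtered and ranked by them within each list, and the background pileup was estimated from them.

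Peaks were merged per library, and the covered percent of each RefSeq GRCh38.p14 protein-coding gene of at least 1 kb and each 25-kb autosomal bin was computed. Features with a mean of 1% to 99% over the 30 libraries entered limma 3.58.1 (R 4.3.3; 1 mean per group, 15 residual degrees of freedom, eBayes with trend, Benjamini-Hochberg). Adjusted p under 0.05 was called gained or lost. Groups without coverage add no spread, so the adjusted p can be too small for genes that vary only where covered. The script was tested on simulated data. Called lengths and shares were compared by exact two-sided permutation. The pileup was solved from the fold and p of the shortest 2% of peaks, assuming a pseudocount of 1 and a genome-wide background, which could not be checked against reads. Promoter windows were matched by gene identifier for 15411 of 19447 genes, with 1 window kept per gene. Other software was scipy 1.17.1, pandas 2.3.3 and numpy 2.4.6 under Python 3.11.15, with matplotlib 3.10.9 and data.table (version 1.17.8).

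Named genes were those of at least 10 kb called with both days apart (the 12 largest gains and 12 largest losses, of which 7 existed), the top called gene of each of 26 lists in each direction or, with none called, the largest difference, NSD2, FGFR3 and CCND2, and 5 genes per direction from each test against another line. Genes outside this rule (the other called members of small lists, SLAMF7, MS4A1 and the marker genes) were added after their values were seen. The comparison, its lists and tests were chosen with earlier results of these data known. Alternatives were scaling by called length, lists of equal length, stricter peaks, joined gaps, no coverage filter, fewer groups, a replicate block, a pileup covariate and leaving out each library. Leaving out bases within 2 kb of a start was added after seeing the data. The other 10 libraries in the labels were not analysed here. The result of 1 marker list is not reported here.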

Additional observations from a re-analysis of the deposited data

Results flagged for a closer look

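The results below differ between clone 11 and the dTAG parental line by a test of the difference itself, the limma contrast of the 2 lines' changes from day 0 to day 14. Genes that rose more in clone 11 numbered 120, and 1 rose less. These counts are not stable: leaving out 1 library gave 3 to 410 rising more, scaling by called length gave 618 more and 785 less, and peaks with a -log10 q of at least 5 gave 0 and 0. Among genes of at least 10 kb, the difference of changes was 28.8 points in CLRN2, 27.4 in LOC124904583, 26.9 in CTSS, 21.4 in ARGFX, 21.0 in FCRL2 and -6.37 in SLBP. In CLRN2, CTSS, ARGFX and FCRL2 both clone 11 day 14 libraries lay above all 4 parental libraries. LOC124904583 was 25.5% and 21.4% covered in the untreated parental line against 6.73% and 4.77% in untreated clone 11, so its starting levels differed. The day 0 pileup of the parental libraries also differed from each other, at 2.22 and 1.11.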

How the results depend on the processing

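Direction was kept for the shares inside genes and near parental peaks under every alternative run, while called length turned to a ratio of 0.975 at a -log10 q of at least 5 and 0.836 at a fold of at least 4. Counts are given as genes gained, genes lost, bins gained and bins lost. Lists of equal length gave 153, 149, 702 and 457. A -log10 q of at least 5 gave 0, 1, 0 and 0, and a fold of at least 4 gave 0, 2, 1 and 4, with fewer features tested in both. Joined gaps gave 561, 4, 4495 and 4. Fitting only the groups compared moved genes gained to 701 and bins lost to 126. The pileup covariate gave 1258, 322, 8217 and 1041. Scaling by called length moved the lost counts to 2908 genes and 5442 bins, and leaving out bases near starts moved genes lost to 17. Genes rising more or less than in clone 8 were 1 and 1 with lists of equal length, 3 and 2 with joined gaps and 3 and 1 without the coverage filter. The lower count was 1 after scaling and 1 at a fold of at least 4. Genes rising more or less than in the parental line were 618 and 785 after scaling, 16 and 16 with lists of equal length, 0 and 0 at the stricter q, 0 and 3 at the stricter fold, and 1010 and 21 with only the groups compared. The higher count was 14 with joined gaps, and the lower count 38 with the covariate. The stricter peaks tested fewer features and some fits used fewer groups, but the cause of these changes was not tested. Of the 1941 gained genes given above, 529 were still tested at the stricter q, with 386 higher at day 14 and 0 called gained. At the stricter fold 280 were still tested, with 150 higher and 0 called gained.

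Leaving out 1 library at a time gave 608 to 1776 genes gained, 9 to 35 lost, 4313 to 13359 bins gained and 4 to 16 lost. Against clone 8 it gave 0 to 8 genes higher and 0 to 5 lower, and against the parental line 3 to 410 higher and 0 to 5 lower.

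With the replicate number as a block, genes lost were 68 and bins lost 102, genes rising more than in the parental line 586 and less 12, and all 45 called named genes kept their call. The numbers do not establish a pairing: deviations of same-numbered libraries at days 0 and 14 correlated at 0.110, against 0.0335 to 0.558 over 105 group pairs.

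Of the named genes, HPCAL4 turned to -3.88 points with lists of equal length and -7.42 at the stricter q, CCND3 to -0.327, -0.778 and, at the stricter fold, -0.109. At the stricter fold CD8A was -3.95, CPN2 -2.92 and WNT16 -7.97. FGFR3, not called, was -7.74 after scaling, -10.3 with lists of equal length and -10.7 with the covariate, and GADD45G, not called, -55.8, -66.6 and -3.40 under the same 3. Over all alternatives the 45 called named genes gave 555 values, of which 274 kept their call, 273 kept direction only and 8 turned.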
